A study of Sparus aurata with 8 samples.

Results

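The genes described here are the solute carriers of the gilthead seabream (*Sparus aurata*) count table, chosen as every protein_coding feature whose product name holds the words solute carrier family. The rule gave 127 of 31501 protein_coding features, out of 197399 features in all, in 15 numbered families. It used names only and no measured value. RNA was sequenced from SPZ_EJ, ejaculated spermatozoa obtained by pressing the abdomen, and from HGC, the fraction of spermatocytes II and spermatids sorted by flow cytometry from the testis. Each group had 4 libraries, each made from a pool of 3 captive adult males sampled in their breeding season, sedated for sperm collection or killed for the testis. By the study's methods the RNA integrity number was lower for SPZ_EJ RNA, which lacked the ribosomal RNA peaks, than for HGC RNA. From the missing peaks and immunofluorescence microscopy the study concluded that non-sperm cells were nearly absent. In this design RNA integrity and cell type cannot be told apart. The study gives a single total of males for the RNA of both groups, so the groups may share males. Whether SPZ_EJ and HGC pools of the same number share males is not given in the sources used here. The libraries of a group differed by more than counting error. Genes are named by their product, so that solute carrier family 22 member 7 is written *slc22a7*, and the feature identifier is added where it helps to tell features apart.

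Solute carriers are membrane proteins that move ions, sugars, nucleotides, vitamins, metals and other small molecules across the plasma membrane and the membranes of organelles. Some are coupled to gradients of sodium, protons or chloride, others exchange one solute for another, and others let a solute run down its own gradient. In sperm, members of the group are known for glucose uptake for energy metabolism, for carnitine and organic anion transport, and for the ion movements that set cell volume and membrane potential. Round spermatids still transcribe and store RNA, whereas mature sperm are held to be largely silent in transcription.

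Libraries held 15395220 to 17886675 counts in SPZ_EJ and 19865716 to 30645027 in HGC. Ribosomal RNA types took 10.8 to 31.8% of the counts in SPZ_EJ, the most in replicate 2, and 11.5 to 14.6% in HGC. Levels are given as CPM, the count of a feature relative to its library's TMM-scaled total. They reflect reads and not transcripts, and are compared between libraries and not between genes. Because TMM factors ran from 0.679 in HGC replicate 1 to 1.64 in SPZ_EJ replicate 1, CPM are not plain shares of a library's reads. Scaling mattered for the direction of small changes: with library size alone the fold changes of all features moved up by a median of 0.73 on the log2 scale. Of 21 tested features of meiosis and spermatids, 18 were lower in SPZ_EJ, beside 24.7% of all tested features and 31.9% of protein_coding features. The list summed to 233 to 503 CPM in SPZ_EJ against 8144 to 11770 in HGC. It also held cilia and flagella features and was chosen with earlier results known, so it is no independent check of the labels. In SPZ_EJ the sum of 107 leukocyte marker features was 4066 to 9056 CPM, the highest in replicate 1, against 768 to 949 in HGC, and 35 of 48 tested were higher and 4 lower. The 107 included antigen presenting class II features at 2531 to 6433 CPM in SPZ_EJ and 474 to 621 in HGC. They also included 78 picked by the word immunoglobulin in the name, which need not mark leukocytes, with 13 higher and 4 lower. The 116 duct epithelium features overlapped, at 1043 to 2151 CPM in SPZ_EJ and 1034 to 1551 in HGC, with 10 of 34 tested higher and 6 lower. Of the 116, 53 were picked by the text cadherin-1 in the name, which longer names also match. The list is therefore not specific to this epithelium. Within that list keratins were higher, at 595 to 1683 CPM in SPZ_EJ and 78.5 to 131 in HGC, and mucins lower, at 63.7 to 99.5 CPM in SPZ_EJ and 782 to 1195 in HGC. The 13 testis somatic features also overlapped, at 7.99 to 15.6 CPM in SPZ_EJ and 5.86 to 9.53 in HGC. Of 4 tested, 1 was higher and 1 lower. Steroidogenic acute regulatory protein had 0 counts in all SPZ_EJ libraries, but was also near the floor in HGC, at 0.0714 to 0.465 CPM. Inhibins went the other way, at 1.11 to 3.12 CPM in SPZ_EJ and 0.0714 to 0.521 in HGC, with 1 called higher.

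RNA of the 127 members took a smaller share of SPZ_EJ libraries than of HGC libraries, and its make-up differed. Transporters under other names are not in it, and solute carrier counts below mean those of the members. All 127 members together took 0.117 to 0.164% of the counts in SPZ_EJ and 0.408 to 0.561% in HGC. Their summed level was 1219 ± 201 CPM in SPZ_EJ and 6363 ± 1464 CPM in HGC (SD, n = 4 each), with no overlap between the groups. In SPZ_EJ mitochondrial carriers of family 25 and sugar carriers of family 2 took larger parts of it than in HGC, where most came from organic ion carriers of family 22 and magnesium carriers of family 41. In bulk samples, fewer cells of a type and less RNA per cell cannot be told apart.

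Of the 127 members, 64 passed the filter on low counts and 63 did not. Among the 63, 5 had 0 counts everywhere and the largest count in any library was 115. Members were called by the quasi-likelihood test of edgeR, where the p adjusted by Benjamini-Hochberg over all features was below 0.01 and the absolute log2 fold change was above 1. In SPZ_EJ 13 of the 64 were called higher, or 20.3%, beside 32.3% of all tested features and 23.9% of tested protein_coding features. In SPZ_EJ 27 were called lower, or 42.2%, beside 24.7% of all tested features and 31.9% of protein_coding features. Calls in either direction covered 62.5% of the members and 56.9% of all features. In each of the 40 called members the libraries of the groups did not overlap. Among tested members every SPZ_EJ library lay above every HGC library in 17, or 26.6%, against 35.4% of all features. Every SPZ_EJ library lay below every HGC library in 28, or 43.8%, against 29.8% of all features. The median log2 fold change was -0.61 for the tested members, 0.45 for all tested features and -0.29 for protein_coding features. The median was -1.40 over the 68 members tested without SPZ_EJ replicate 1 and -0.97 over the 70 tested without SPZ_EJ replicate 4. These are not the same sets of members as the 64. With scaling by library size alone, the members called were 19 higher and 22 lower, so that 46.3% of the called members were higher, against 32.5% with TMM scaling. The split of each family is drawn in the plot of fold changes by family.

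**Figure D1:**
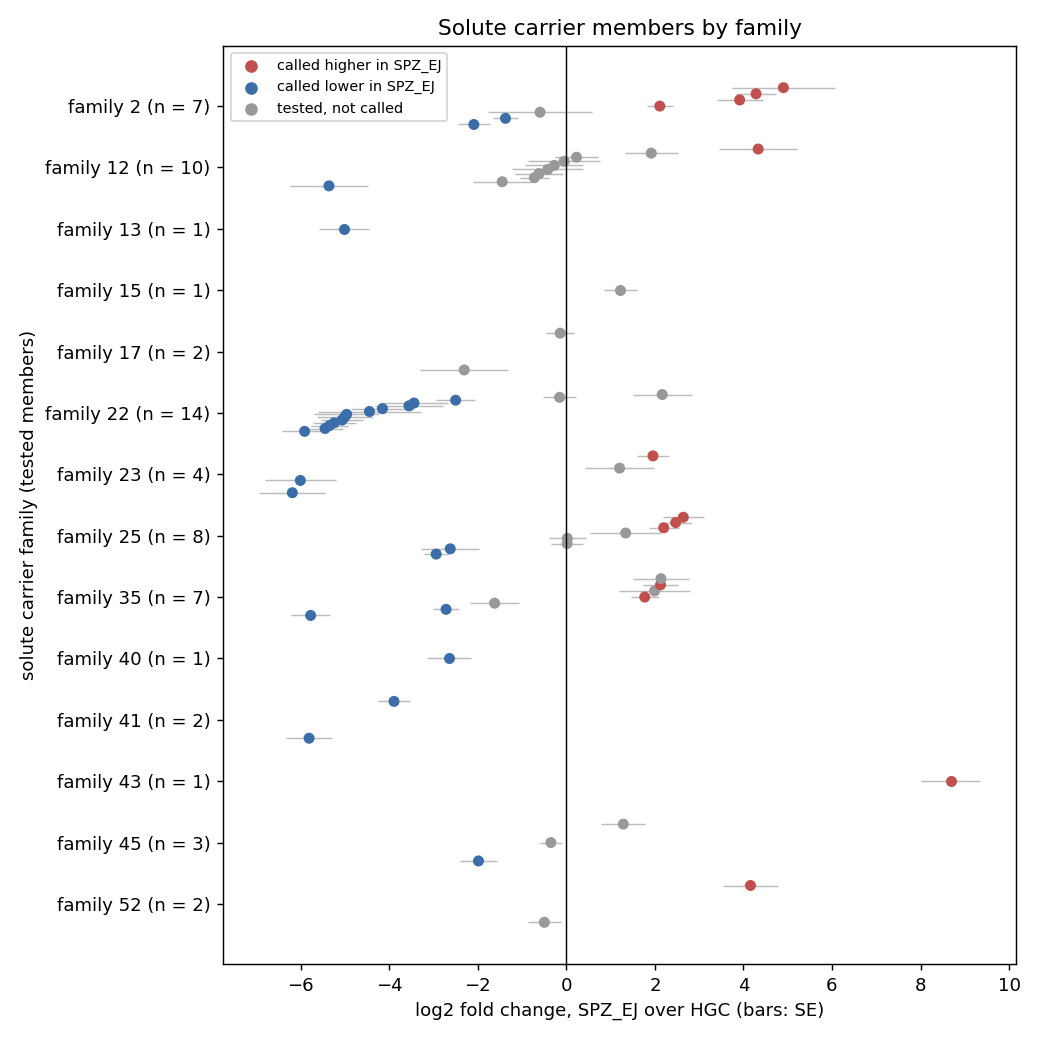
Log2 fold change of SPZ_EJ over HGC (x axis) for 63 of the 64 tested solute carriers, by family number (y axis), coloured by call. In family 22 the 12 called members all lie on the lower side, whereas family 2 has 4 called higher and 2 called lower.

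Organic ion carriers of family 22 fell together. This family moves organic cations, organic anions and zwitterions such as carnitine. It has 33 members here, and of the 14 tested, 12 fell in SPZ_EJ and 2 were not called. Its summed level was 280 ± 134 CPM in SPZ_EJ and 3134 ± 716 CPM in HGC (SD, n = 4 each). It made up 12.3 to 28.7% of solute carrier counts in SPZ_EJ and 48.4 to 50.8% in HGC, with no overlap.

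The member of the family with the most reads was *slc22a7* (Saurata1B040788), known in mammals as an organic anion transporter. It had 77.8, 265, 332 and 172 CPM in the SPZ_EJ libraries and 1195, 1467, 1319.8 and 813 CPM in the HGC libraries. All SPZ_EJ values were lower, with replicate 1 the lowest, and the log2 fold change was -2.50 ± 0.44 (SE, adjusted p = 0.000457). Even so it took the most reads of all members in 3 of the 4 SPZ_EJ libraries, where its share was 8.05 to 23.7% of solute carrier counts. In SPZ_EJ replicate 4 the leading member was the mitochondrial carrier *slc25a40*.

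The other large members of the family fell further. The gene *slc22a17*, whose mammalian product is a receptor for the iron-binding lipocalin 2, had 8.28, 33.6, 19.6 and 13.5 CPM in SPZ_EJ and 980.3, 657, 607 and 598 CPM in HGC. Its log2 fold change was -5.25 ± 0.49 (SE, adjusted p = 5.86e-06), and the lowest HGC library lay far above the highest SPZ_EJ library. The urate and nicotinate carrier *slc22a13* (Saurata1B053360) had 5.01, 32.9, 13.9 and 8.64 CPM in SPZ_EJ and 830.4, 322, 422 and 368 CPM in HGC. It fell by 5.01 ± 0.63 on the log2 scale (SE, adjusted p = 4.37e-05), and SPZ_EJ replicate 2 was the highest of its group for both genes. The orphan carrier *slc22a31* averaged 6.7 ± 3.94 CPM in SPZ_EJ and 224 ± 60.3 CPM in HGC (SD, n = 4 each), a log2 fold change of -5.07 ± 0.48 (SE). The organic anion carrier *slc22a6* (Saurata1B029823) averaged 3.17 ± 3.05 CPM in SPZ_EJ and 97.7 ± 49.2 CPM in HGC, a log2 fold change of -4.96 ± 0.73 (SE). Without SPZ_EJ replicate 2 the log2 fold change was -5.76 for *slc22a13* and -5.85 for *slc22a6*.

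Carriers named after carnitine and ergothioneine transporters fell too. In mammals *slc22a5* takes up carnitine, which carries fatty acids into mitochondria, and *slc22a4* takes up ergothioneine, an antioxidant. The product name of *slc22a5* is shared by 8 features, and the 5 that were tested all fell. The largest, Saurata1B048784, had 1.43, 1.88, 1.51 and 0.457 CPM in SPZ_EJ and 104.4, 89.8, 78.2 and 44.6 CPM in HGC. Its log2 fold change was -5.91 ± 0.50 (SE, adjusted p = 3.56e-06), with a wide gap between the groups. A near equal fall of -5.35 ± 0.43 (SE) was seen for Saurata1B013409, which averaged 1.87 ± 0.786 CPM in SPZ_EJ and 76.1 ± 23.03 CPM in HGC. The log2 fold changes of the remaining 3 were -4.45, -4.15 and -3.56, all at HGC means of 16.2 CPM or less. Of these, the call of Saurata1B050011, with reads in 1 SPZ_EJ library only, was lost without any one of 5 libraries, SPZ_EJ replicates 2 and 4 and HGC replicates 1, 3 and 4 (adjusted p = 0.0101 to 0.0145). Without SPZ_EJ replicate 3, which held all 9 of its SPZ_EJ counts, its log2 fold change was -8.72 (adjusted p = 0.000223). Of the untested features of the name, Saurata1B046023 had 0 counts in SPZ_EJ and 2, 6, 7 and 3 in HGC. Saurata1B039681 had 6, 0, 7 and 2 in SPZ_EJ and 0, 0, 0 and 5 in HGC, and Saurata1B009542 had 1 and 4 in all. The study lists a member 5-like transcript of this family among those most enriched in sperm. Which feature that is was not determined. The main *slc22a4* feature, Saurata1B006485, had 6.2, 5.59, 5.36 and 2.56 CPM in SPZ_EJ and 292, 223, 208 and 140.4 CPM in HGC. It fell by 5.45 ± 0.41 on the log2 scale (SE, adjusted p = 1.77e-06), and the other tested feature of that name, Saurata1B045791, fell by 3.44 ± 0.77 (SE). Without SPZ_EJ replicate 3, its highest SPZ_EJ library, the log2 fold change of Saurata1B045791 was -4.70, and without replicates 3 and 4 together it was -5.22.

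Of the 2 members of family 22 that were not called, *slc22a15*-like had 5.13 ± 1.11 CPM in SPZ_EJ and 5.7 ± 0.803 CPM in HGC, a log2 fold change of -0.15 ± 0.38 (SE, adjusted p = 0.73). The organic cation carrier homologue *slc22a18* went the other way, with 4.91, 6.17, 2.96 and 5.39 CPM in SPZ_EJ and 0.214, 0.521, 1.79 and 1.74 CPM in HGC. The groups did not overlap, but the adjusted p of 0.0124 missed the threshold (log2 fold change 2.16 ± 0.66, SE). Among the untested features of the family, *slc22a13* (Saurata1B013884) had 0 counts in all SPZ_EJ libraries and 43, 9, 21 and 18 counts in the HGC libraries. With 3 counts over the 4 SPZ_EJ libraries as the floor, it was at least 35.1-fold lower in SPZ_EJ. Untested features of that name did not all go this way. Saurata1B038692 had 0, 16, 1 and 5 counts in SPZ_EJ and 0 in every HGC library, which overlapped. The untested *slc22a4* feature Saurata1B003766 had 115, 1, 59 and 21 counts in SPZ_EJ and 2, 0, 4 and 2 in HGC, so that the groups overlapped through SPZ_EJ replicate 2.

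**Figure D2:**
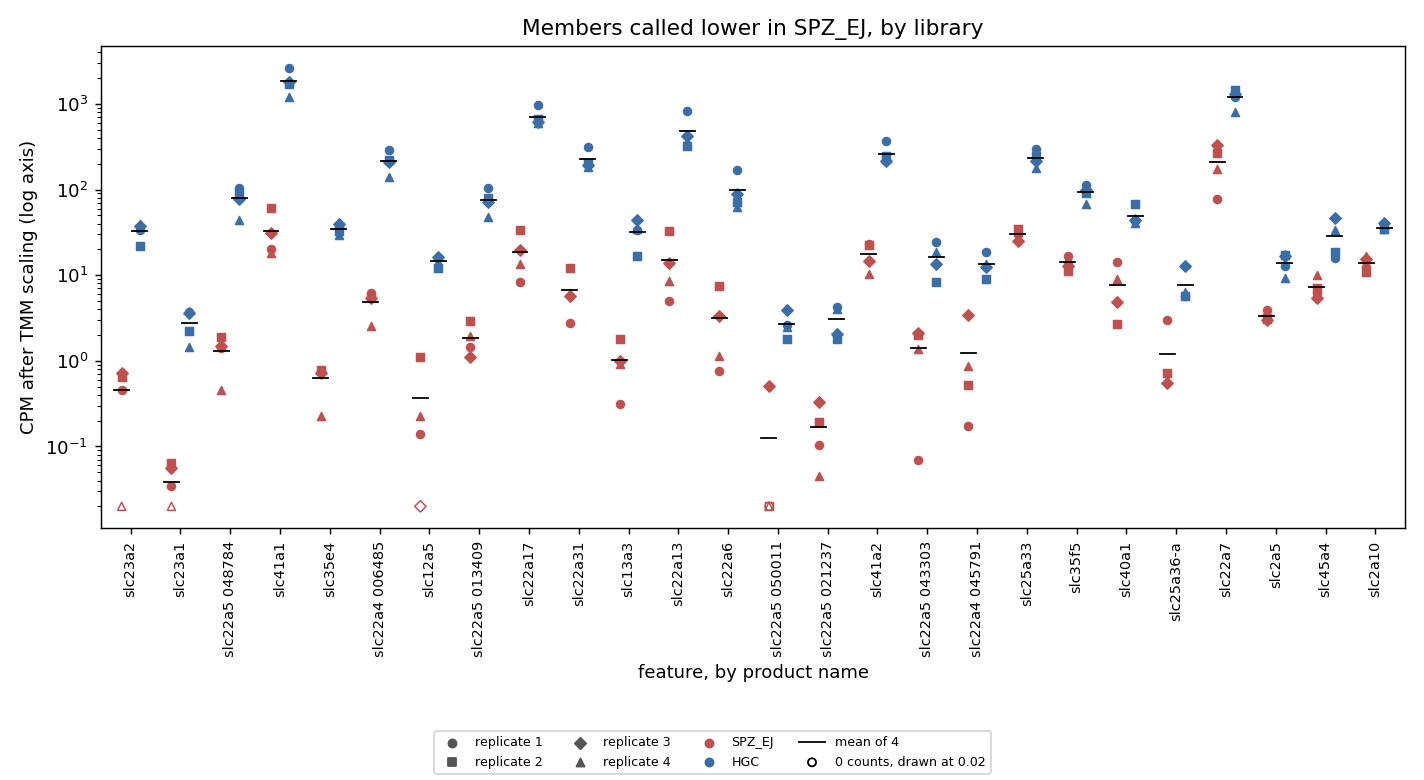
TMM-scaled CPM (log y axis) of 26 of the 27 members called lower in SPZ_EJ, one symbol per library and a line at the mean of 4, with 0 counts drawn as open symbols at 0.02. In none of the 26 does an SPZ_EJ symbol reach an HGC symbol.

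In the metal carrier families 40 and 41, all 3 tested features were lower in SPZ_EJ. Zinc and copper transporters under other names are not among the members. Family 41 proteins move magnesium ions, and *slc41a1* (Saurata1B030736), which in mammals exports magnesium in exchange for sodium, was the member with the most reads in every HGC library. It had 20.2, 61.4, 31.4 and 18.1 CPM in SPZ_EJ and 2632, 1719.7, 1814 and 1194 CPM in HGC. The groups were far apart, with SPZ_EJ 56.2-fold lower (log2 fold change -5.81 ± 0.53, SE, adjusted p = 5.12e-06). Together with family 22, it took 14.4 to 32.4% of solute carrier counts in SPZ_EJ and 74.2 to 80.7% in HGC. The related *slc41a2* (Saurata1B040867) had 23.2, 22.7, 14.5 and 10.2 CPM in SPZ_EJ and 367, 243, 215 and 225 CPM in HGC, a log2 fold change of -3.89 ± 0.37 (SE, adjusted p = 6.74e-06).

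Other features of the same names were sparse and did not all go the same way. The untested *slc41a1* feature Saurata1B046365 had 0 counts in SPZ_EJ and 6, 18, 22 and 11 counts in HGC, at least 21.98-fold lower in SPZ_EJ against the floor. The untested *slc41a1* feature Saurata1B039610 had 8, 6, 9 and 3 counts in SPZ_EJ and 1, 0, 0 and 2 in HGC. The untested *slc41a2* feature Saurata1B002300 had 10, 12, 0 and 24 counts in SPZ_EJ and 2, 0, 2 and 0 in HGC, which overlapped. Family 40 is ferroportin, *slc40a1*, the iron exporter of vertebrate cells. It had 14.4, 2.66, 4.91 and 9.05 CPM in SPZ_EJ and 42.9, 67.8, 44.6 and 40.4 CPM in HGC, with no overlap, and fell by 2.65 ± 0.49 on the log2 scale (SE, adjusted p = 0.00056). Its call was lost with library size scaling (adjusted p = 0.0164) and without SPZ_EJ replicates 3 and 4 together (adjusted p = 0.0133), and without SPZ_EJ replicate 1 its log2 fold change was -3.34.

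**Figure D3:**
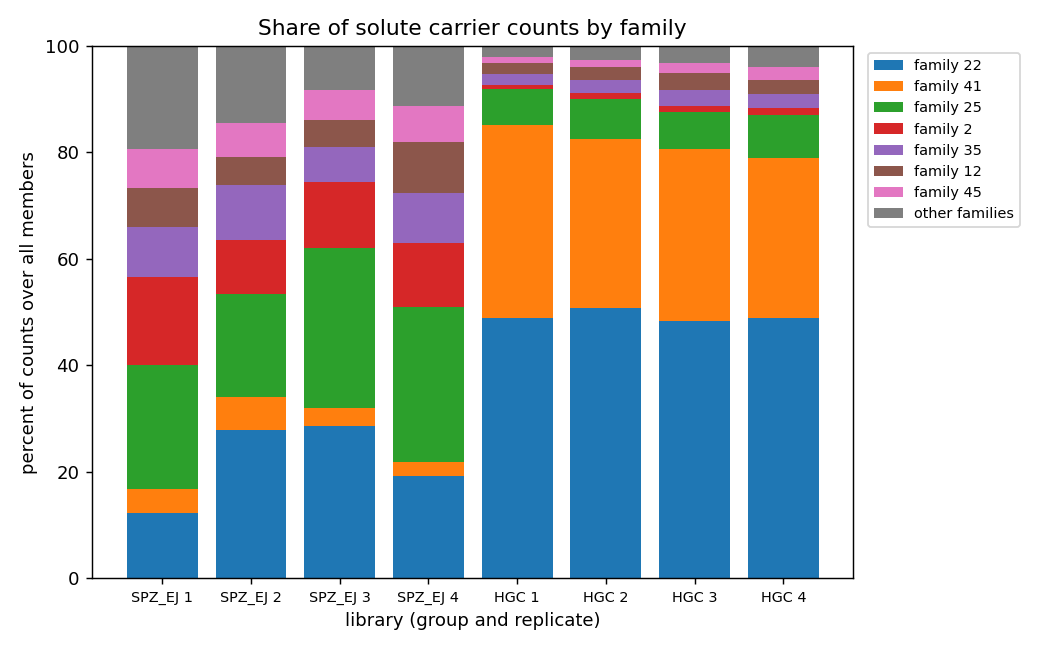
Percent of all solute carrier counts (y axis) taken by each family in each library (x axis, SPZ_EJ on the left, HGC on the right). Family 22 takes 12.3 to 28.7% in SPZ_EJ and 48.4 to 50.8% in HGC, and family 41 takes 2.57 to 6.28% in SPZ_EJ and 30.1 to 36.2% in HGC.

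Sugar carriers changed in both directions. Family 2 holds the facilitative hexose transporters, and of its 18 members 7 were tested, with 4 higher and 2 lower in SPZ_EJ. Their summed level was 152 ± 17.9 CPM in SPZ_EJ and 69.1 ± 5.56 CPM in HGC (SD, n = 4 each), and they made up 10.05 to 16.5% of solute carrier counts in SPZ_EJ and 0.867 to 1.32% in HGC. The glucose transporter *slc2a1* (Saurata1B040201), found in many cell types, had 74.0, 51.6, 51.7 and 41.6 CPM in SPZ_EJ and 15.5, 12.2, 10.5 and 12.4 CPM in HGC. It was 4.32-fold higher (log2 fold change 2.11 ± 0.29, SE, adjusted p = 8.74e-05). The glucose transporter *slc2a3*, which in mammals serves neurons, blood cells and sperm, had 28.02, 24.04, 22.04 and 19.7 CPM in SPZ_EJ and 2.21, 0.81, 0.831 and 0.988 CPM in HGC. The SPZ_EJ libraries lay close to each other and well above all HGC libraries, a 19.5-fold difference (log2 fold change 4.28 ± 0.44, SE, adjusted p = 1.16e-05).

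The other sugar carriers that rose varied more between libraries. In SPZ_EJ *slc2a11* (Saurata1B015907) had 12.4, 41.3, 72.8 and 45.9 CPM, against 3.14, 1.97, 2.7 and 3.6 CPM in HGC, with replicate 1 the lowest of SPZ_EJ (log2 fold change 3.91 ± 0.52, SE, adjusted p = 6.12e-05). Without SPZ_EJ replicates 3 and 4 together it was 3.31. The gene *slc2a6*, a lysosomal hexose transporter in mammals, had 25.5, 4.09, 6.97 and 8.68 CPM in SPZ_EJ and 1.43, 0.116, 0 and 0.0581 CPM in HGC. Here replicate 1 was the highest in each group, and the log2 fold change was 4.90 ± 1.16 (SE, adjusted p = 0.00292). Its call was lost without HGC replicate 2 (adjusted p = 0.0114) or replicate 4 (adjusted p = 0.0109). The log2 fold change was 7.43 without HGC replicate 1, 4.29 without HGC replicate 3 and 3.98 without SPZ_EJ replicate 1. Below the filter, the *slc2a9* feature Saurata1B050073 had 30, 6, 10 and 17 counts in SPZ_EJ and 0 in every HGC library, at least 18.2-fold higher against the floor. The tested feature of that name, Saurata1B029101, averaged 0.531 CPM in SPZ_EJ and 0.826 CPM in HGC. Its groups overlapped and it was not called (log2 fold change -0.60 ± 1.17, SE, adjusted p = 0.664).

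The fructose transporter *slc2a5* and *slc2a10* fell. In SPZ_EJ *slc2a5* had 3.97, 3.18, 2.96 and 3.06 CPM, against 12.9, 17.4, 16.5 and 9.3 CPM in HGC, a fall of 2.09 ± 0.37 on the log2 scale (SE, adjusted p = 0.000416). In SPZ_EJ *slc2a10* had 12.4, 10.8, 15.6 and 16.7 CPM, against 34.1, 34.4, 40.9 and 34.4 CPM in HGC, a fall of 1.38 ± 0.27 (SE, adjusted p = 0.000988). Both calls were lost with scaling by library size only (adjusted p = 0.0254 for *slc2a5* and 0.188 for *slc2a10*). With protein_coding features only, *slc2a10* also lost its call, since its fold change missed the threshold (adjusted p = 0.00777). In family 45, of proton-linked sugar carriers, 1 of 3 tested features fell. This *slc45a4* feature, Saurata1B019554, had 6.2, 7.15, 5.36 and 10.1 CPM in SPZ_EJ and 15.7, 18.9, 45.9 and 33.4 CPM in HGC (log2 fold change -1.99 ± 0.41, SE, adjusted p = 0.00122). Another feature of the same name was more abundant, at 54.9 ± 7.47 CPM in SPZ_EJ and 70.0 ± 12.1 CPM in HGC (SD, n = 4 each, adjusted p = 0.241).

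The largest rise among the tested members was that of *slc43a3*, the only member of family 43, whose mammalian product carries purine nucleobases. It had 47.7, 82.4, 30.4 and 30.4 CPM in SPZ_EJ and 0, 0.174, 0.0831 and 0.174 CPM in HGC, where it rested on 8 counts over the 4 libraries. The log2 fold change was 8.68 ± 0.67 (SE, adjusted p = 2.02e-06). Riboflavin carriers of family 52 take up vitamin B2, and 1 of 2 rose. This was *slc52a3*-a, with 26.1, 23.6, 11.4 and 17.4 CPM in SPZ_EJ and 2.43, 0.984, 0.291 and 0.756 CPM in HGC, no overlap and a log2 fold change of 4.16 ± 0.62 (SE, adjusted p = 0.000148). The other, *slc52a2*, had 19.5 ± 7.44 CPM in SPZ_EJ and 27.5 ± 9.74 CPM in HGC (SD, n = 4 each, adjusted p = 0.248). The lysosomal peptide and histidine carrier *slc15a4* had 36.2, 37.9, 14.004 and 18.6 CPM in SPZ_EJ and 12.6, 11.2, 11.1 and 10.9 CPM in HGC. The groups did not overlap, and the adjusted p of 0.0115 missed the threshold.

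**Figure D4:**
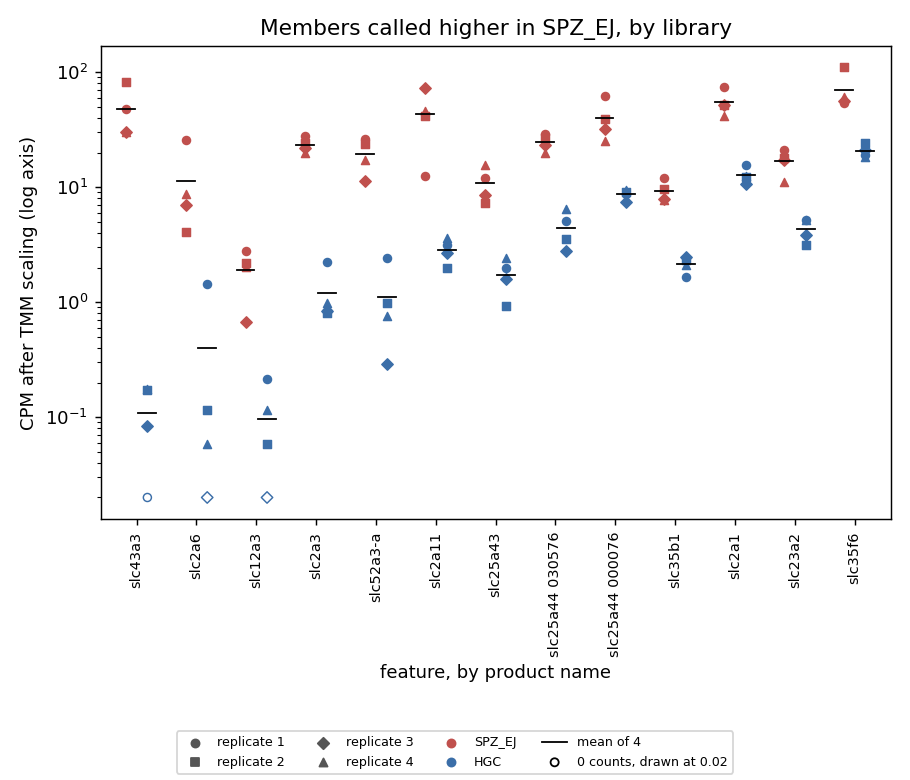
TMM-scaled CPM (log y axis) of the 13 members called higher in SPZ_EJ, one symbol per library and a line at the mean of 4, with 0 counts drawn as open symbols at 0.02. SPZ_EJ replicate 1 is the highest SPZ_EJ library in 9 of the 13.

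Among the 13 members called higher, SPZ_EJ replicate 1 was the highest SPZ_EJ library in 9, replicate 2 in 2, and replicates 3 and 4 in 1 each. The summed leukocyte markers were also highest in SPZ_EJ replicate 1, at 9056 CPM, with 4066 to 6519 in the other SPZ_EJ libraries and 768 to 949 in HGC. The part of such cells in the rise of these carriers was not tested. In *slc2a11* and *slc35f6* replicate 1 was instead the lowest SPZ_EJ library. Among the 27 members called lower, replicate 2 was the highest SPZ_EJ library in 13. The 16 erythrocyte features summed to 650.1 to 1725 CPM in SPZ_EJ and 30370.0 to 41982 CPM in HGC, with 3 of 7 tested lower, and carbonic anhydrases made up most of this in both groups. Hemoglobins alone were at 3.90 to 22.9 CPM in SPZ_EJ and 8.39 to 615 CPM in HGC, which overlapped.

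Vitamin C carriers of family 23 split within a single product name. These proteins take up ascorbate with sodium. The name *slc23a2* was carried by 3 tested features, of which 1 fell, 1 rose and 1 was not called. The first, Saurata1B035668, had 0.452, 0.65, 0.725 and 0 CPM in SPZ_EJ and 33.3, 21.8, 37.9 and 39.3 CPM in HGC, the largest fall among the tested members (log2 fold change -6.19 ± 0.75, SE, adjusted p = 3.26e-05). The next, Saurata1B001518, had 21.1, 17.9, 17.4 and 11.01 CPM in SPZ_EJ and 5.21, 3.13, 3.86 and 5.17 CPM in HGC (log2 fold change 1.96 ± 0.36, SE, adjusted p = 0.000619). So the 2 features were each separated between the groups, in opposite directions. The last, Saurata1B032784, had 0.229 to 2.79 CPM in SPZ_EJ and 0.232 to 0.748 CPM in HGC. The tested *slc23a1* feature was sparse and fell, with 0.0389 ± 0.0288 CPM in SPZ_EJ and 2.76 ± 1.1 CPM in HGC (SD, n = 4 each, log2 fold change -6.01 ± 0.80, SE).

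Sharing of names was common, since 88 of the 127 features carried one of 27 names given to several features. Whether such features are paralogs or fragments of 1 gene was not tested, and estimated counts may be split between near-identical copies. Of the names with several tested features, *slc22a5* (5 of 5 lower), *slc22a4* (2 of 2 lower) and *slc25a44* (2 of 2 higher) went one way. The plot of features with shared names shows the contrast with *slc23a2*.

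**Figure D5:**
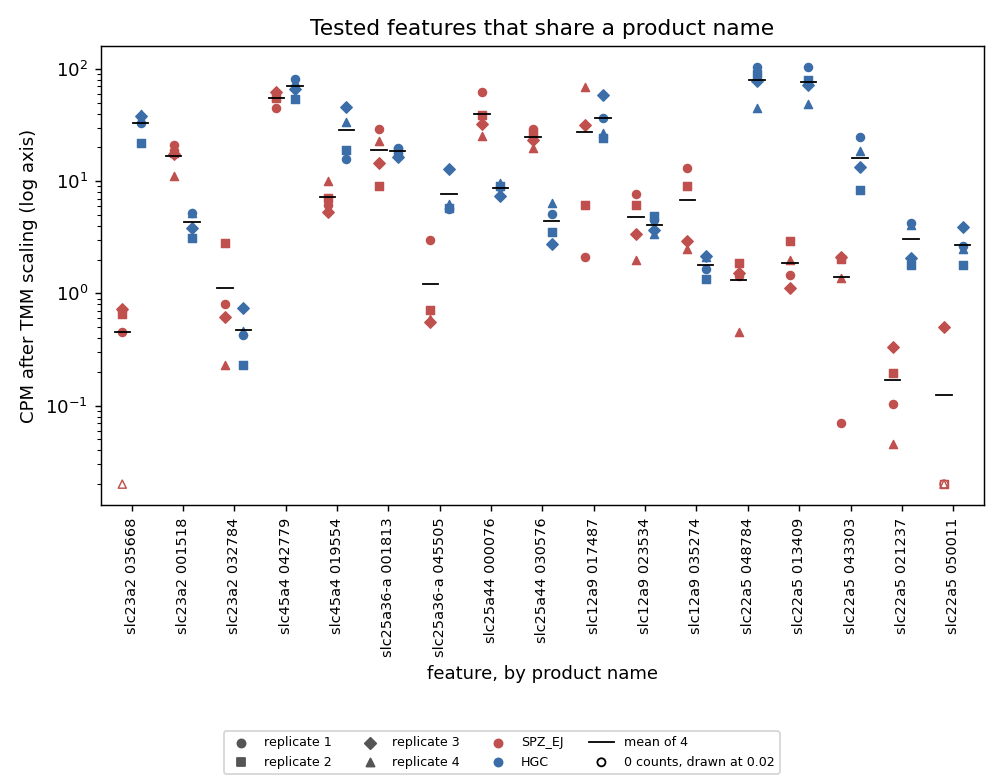
TMM-scaled CPM (log y axis) of tested features that share a product name, one symbol per library, with the last 6 digits of the feature identifier after the name. Drawn are *slc23a2*, *slc45a4*, *slc25a36*-a, *slc25a44*, *slc12a9* and *slc22a5*. The names *slc12a2*, *slc17a9* and *slc22a4*, which also have several tested features, are not drawn. The *slc23a2* features lie on opposite sides, with means of 0.457 CPM in SPZ_EJ and 33.1 CPM in HGC for Saurata1B035668, and of 16.9 CPM in SPZ_EJ and 4.34 CPM in HGC for Saurata1B001518, whereas all 5 *slc22a5* features are lower in SPZ_EJ.

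Mitochondrial carriers of family 25 changed in both directions. All 8 members were tested, with 3 higher, 2 lower and 3 not called, and their sum was 311 ± 86.6 CPM in SPZ_EJ and 454 ± 73.2 CPM in HGC (SD, n = 4 each). The pyrimidine nucleotide carrier *slc25a33* had 30.4, 34.8, 25.2 and 31.8 CPM in SPZ_EJ and 293, 248, 217 and 178 CPM in HGC. It fell 7.68-fold with no overlap (log2 fold change -2.94 ± 0.28, SE, adjusted p = 6.69e-06). A second carrier of pyrimidine nucleotides, the *slc25a36*-a feature Saurata1B045505, fell by 2.62 ± 0.65 (SE, adjusted p = 0.00399). Its highest SPZ_EJ library, replicate 1 at 2.99 CPM, stood against 0.558 to 0.715 CPM in the others, and its HGC values were 5.64 to 12.8 CPM. That call was lost under 7 alternatives, including without SPZ_EJ replicate 2, 3 or 4 (adjusted p = 0.0118, 0.0188 and 0.0191) and without HGC replicate 3 (adjusted p = 0.0145). Without SPZ_EJ replicate 1 the log2 fold change was -3.75 (adjusted p = 0.000117). The other feature of the name, Saurata1B001813, averaged 18.8 ± 8.78 CPM in SPZ_EJ and 18.6 ± 1.64 CPM in HGC.

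Both features of *slc25a44*, a carrier of branched-chain amino acids in mammals, rose. Saurata1B000076 had 62.7, 39.2, 32.1 and 25.5 CPM in SPZ_EJ and 8.79, 9.03, 7.39 and 9.53 CPM in HGC (log2 fold change 2.20 ± 0.34, SE, adjusted p = 0.000186). Saurata1B030576 had 28.96, 26.6, 23.1 and 19.8 CPM in SPZ_EJ and 5.07, 3.53, 2.78 and 6.39 CPM in HGC (log2 fold change 2.47 ± 0.36, SE, adjusted p = 0.000129). The SPZ_EJ libraries stood above all HGC libraries in both. The orphan *slc25a43* also rose, with 10.8 ± 3.81 CPM in SPZ_EJ and 1.74 ± 0.645 CPM in HGC (SD, n = 4 each, adjusted p = 0.000434). The glutathione carrier *slc25a40* differed more within SPZ_EJ than between the groups, with 58.2, 143, 311 and 205 CPM in SPZ_EJ and 213, 173, 172 and 149 CPM in HGC (log2 fold change 0.02 ± 0.42, SE, adjusted p = 0.968). In the same way *slc25a45* had 0.87, 1.23, 6.58 and 14.1 CPM in SPZ_EJ and 1.16 to 2.79 CPM in HGC.

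Carriers of family 35, known mainly for bringing nucleotide sugars into the Golgi and endoplasmic reticulum, gave 2 higher and 2 lower among 7 tested. The orphan *slc35e4* had 0.766, 0.78, 0.725 and 0.229 CPM in SPZ_EJ and 36.2, 32.8, 39.3 and 29.5 CPM in HGC. It was 54.8-fold lower (log2 fold change -5.78 ± 0.45, SE, adjusted p = 2.13e-06), with groups far apart. In SPZ_EJ *slc35f5* averaged 14.1 ± 2.44 CPM, against 92.9 ± 18.4 CPM in HGC (SD, n = 4 each, adjusted p = 1.32e-05). The gene *slc35f6* had 54.3, 110.0, 55.8 and 61.0 CPM in SPZ_EJ and 19.1, 24.02, 21.02 and 18.2 CPM in HGC (log2 fold change 1.77 ± 0.31, SE, adjusted p = 0.000423). The ATP carrier of the endoplasmic reticulum, *slc35b1*, had 11.97, 9.68, 7.92 and 7.68 CPM in SPZ_EJ and 1.64, 2.32, 2.45 and 2.09 CPM in HGC (log2 fold change 2.13 ± 0.39, SE, adjusted p = 0.000575). Of those not called, *slc35f2* had 1.81, 6.17, 9.6 and 17.3 CPM in SPZ_EJ and 1.33 to 2.58 CPM in HGC (adjusted p = 0.0108).

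Chloride-coupled cation carriers of family 12 were mostly not called. Of 20 members 11 were tested, with 1 higher and 2 lower in SPZ_EJ. The potassium-chloride carrier *slc12a5* (Saurata1B041838), which lowers chloride in neurons, had 0.139, 1.1, 0 and 0.229 CPM in SPZ_EJ and 16, 11.98, 16.2 and 14.2 CPM in HGC (log2 fold change -5.36 ± 0.87, SE, adjusted p = 0.000259). Its SPZ_EJ libraries all lay below the HGC libraries, and the log2 fold change was -6.80 without SPZ_EJ replicate 2 and -4.55 without SPZ_EJ replicates 3 and 4 together. Another potassium-chloride carrier, *slc12a7* (Saurata1B005206), had 18.1 ± 6.72 CPM in SPZ_EJ and 29.9 ± 6.19 CPM in HGC, a log2 fold change of -0.72 ± 0.33 (SE, adjusted p = 0.0731).

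The sodium-chloride carrier *slc12a3* (Saurata1B006705), which reabsorbs salt in the mammalian kidney, rose at a low level. It had 2.78, 2.21, 0.67 and 2.01 CPM in SPZ_EJ and 0.214, 0.0579, 0 and 0.116 CPM in HGC (log2 fold change 4.33 ± 0.89, SE, adjusted p = 0.00115), and without HGC replicate 2 its adjusted p was 0.0106. Without HGC replicate 3 its log2 fold change was 3.66. The 3 tested features of *slc12a2*, the sodium-potassium-chloride carrier, had adjusted p of 0.0711, 0.323 and 0.724. Among 3 tested *slc12a9* features, Saurata1B017487 spread over 2.12, 6.11, 31.4 and 69.1 CPM within SPZ_EJ, against 36.5, 24.1, 58.1 and 26.7 CPM in HGC. Another, Saurata1B035274, had 13.1, 8.97, 2.9 and 2.47 CPM in SPZ_EJ and 1.64, 1.33, 2.16 and 2.09 CPM in HGC, with no overlap and an adjusted p of 0.0136. The order of the SPZ_EJ libraries thus differed between these features of 1 name.

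The remaining families held few tested members. In family 13, of sodium-coupled carboxylate and sulfate carriers, only the dicarboxylate carrier *slc13a3* was tested. It had 0.313, 1.82, 1 and 0.914 CPM in SPZ_EJ and 33.8, 16.7, 43.8 and 34.9 CPM in HGC, 32.4-fold lower (log2 fold change -5.02 ± 0.56, SE, adjusted p = 1.99e-05). Family 17 was measured through *slc17a9*, the vesicular nucleotide carrier, and neither of its 2 tested features was called. The more abundant one had 18.3, 12.3, 14.5 and 11.2 CPM in SPZ_EJ and 13.4, 17.9, 18.9 and 11.7 CPM in HGC, which overlapped. None of the 6 members of family 26, of anion exchangers, passed the filter, and their summed level was 0.0558 to 0.183 CPM in SPZ_EJ and 0 to 0.405 CPM in HGC.

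Proteins that work with carriers and carriers under other names give the setting. The heavy chain of the 4F2 antigen brings amino acid carriers of another family to the cell surface. It had 44.9, 21.5, 29.1 and 44.1 CPM in SPZ_EJ and 9.86, 9.09, 8.72 and 8.95 CPM in HGC, and rose by 1.93 ± 0.32 on the log2 scale (SE, adjusted p = 0.0003). The scaffold NHE-RF1, which anchors ion carriers under the membrane, averaged 14.3 ± 5.88 CPM in SPZ_EJ and 2.85 ± 0.621 CPM in HGC (SD, n = 4 each, adjusted p = 0.000678). An NHE-RF3 feature, Saurata1B005176, averaged 3.29 ± 1.86 CPM in SPZ_EJ and 1.10 ± 0.248 CPM in HGC. Its groups overlapped and it was not called (adjusted p = 0.0264). Of 8 such partner features only these 3 were tested. Of 236 transporters that bear a name other than solute carrier family, 126 were tested, with 36 higher, 37 lower and a median log2 fold change of -0.09. Unlike that of the members, their summed level overlapped between the groups. It was 3644 to 5034 CPM in SPZ_EJ and 4114 to 5112 CPM in HGC. Of 100 ABC transporters, which pump solutes with ATP, 58 were tested, with 5 higher, 18 lower and a median of -0.35. Like that of the members, the summed level of the ABC transporters was lower in SPZ_EJ with no overlap. It was 503 to 638 CPM in SPZ_EJ and 1436 to 1720 CPM in HGC. Both sets stand beside 23.9% higher and 31.9% lower among tested protein_coding features, and 32.3% and 24.7% among all tested features.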

How the data were processed

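RNA-seq libraries of 4 SPZ_EJ and 4 HGC pools were made by the authors with the unstranded SMARTseq2 protocol, so that reads of a gene and of an antisense partner cannot be told apart. The submitters' processing notes name STAR 2.5.3a and RSEM 1.3.0. The authors deposited RSEM estimated counts per gene as whole numbers, without normalization, and these counts were used as deposited. Groups followed the labels. The p-values measure the spread between these pools.

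Counts were fitted with edgeR 4.0.16 (R 4.3.3) on all features: filterByExpr by group, TMM scaling, glmQLFit and glmQLFTest, with Benjamini-Hochberg adjustment over 21375 features. The same code was tested on simulated data. The SE given with a fold change is its absolute log2 value divided by the square root of the test's F statistic. It was back-computed in this way and is not a standard error estimated by the model. It is a rough guide only, above all for features without counts in some libraries. CPM, floors (3 counts over a group) and sums were computed in Python 3.11.15 with pandas 2.3.3. Floors cover counting error only, since amplified reads are not independent molecules. Alternatives used DESeq2 1.42.0 and limma 3.58.1, other scalings and filters, a replicate block and each library left out.

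Members and lists were chosen with earlier results of these data known. Members were named by a rule: in each transport class up to 4 called in each direction with the largest fold change and no overlap, the 10 most abundant of each group, members called with 0 counts throughout a group, the 5 with the most counts among those resting for 90% or more on 1 library, and the partner proteins. Named beyond it, after their values were seen, were the members not called, those below the filter and the remaining same-named features. Of the members resting on 1 library only Saurata1B050011 is described, and of the partner proteins only the tested ones. Sequences and coordinates were not used here. The values of 1 member called lower are not reported here and are left out of the figures, though it is in the counts.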

Additional observations from a re-analysis of the deposited data

Results flagged for a closer look

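Among 78 groups of 4 libraries, those of the 43 named members with over 20 counts in the group, 9 had 1 library apart from the other 3 by Dixon's criterion (the gap to the nearest library over the group's range), or 11.5%, where chance flags about 1 in 20. In SPZ_EJ, *slc25a36*-a (Saurata1B045505) was high in replicate 1 (2.99 CPM, ratio 0.9357), *slc35f6* was high in replicate 2 (110.0 CPM, ratio 0.8794), and *slc35e4* was low in replicate 4 (0.229 CPM, ratio 0.9015). In HGC replicate 1, *slc2a3* (2.21 CPM, ratio 0.8733), *slc2a6* (1.43 CPM, ratio 0.919) and *slc22a17* (980.3 CPM, ratio 0.8468) were high. In HGC replicate 2, *slc40a1* was high (67.8 CPM, ratio 0.8449). In HGC replicate 3, *slc25a36*-a (12.8 CPM, ratio 0.9116) and *slc2a10* (40.9 CPM, ratio 0.9562) were high. All of these members were named as called without overlap between the groups, so their lack of overlap was fixed by that choice.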

How the results depend on the processing

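Under 22 alternatives the number of members called stayed between 9 and 19 higher and between 22 and 31 lower, against 13 and 27, and no member was called in opposite directions. Leaving out 1 library gave 12 to 16 higher and 25 to 31 lower, and the DESeq2 test, with 91 members tested, gave 18 and 30. Without SPZ_EJ replicates 3 and 4 together, a setting added after the data were seen, 15 were higher and 29 lower. The median log2 fold change of the tested members was 0.18 with library size scaling against -0.61, -0.04 with protein_coding features only, -0.24 with upper quartile scaling, and -1.40 to -0.41 with 1 library left out. Leaving out 1 library also changed which members passed the filter, with 68 to 72 tested. Of 37 named members that were called, 23 kept their call throughout and 14 lost it under some alternative. Besides those given above, *slc45a4* (Saurata1B019554) lost it with library size scaling (adjusted p = 0.0404), and *slc2a1*, *slc25a43*, *slc35f6*, *slc35b1* and *slc23a2* (Saurata1B001518) lost it without a filter on low counts (adjusted p = 0.0128 to 0.109). With the pool number as replicate block, 13 were higher and 27 lower, the same members. Same-numbered pools correlated at 0.117, 0.0155, 0.0125 and 0.0818 in their deviations, not all above 0.1, so the numbers were not used as pairs. No call was made for the 63 members below the filter, of which 58 had counts, at most 115 in a library. The part of sequencing depth in this was not tested.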
